A study of Mus musculus with 20 samples.

Results

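Gas5 and 8 further long non-coding genes that carry small nucleolar RNAs (snoRNAs) in their introns are described here across 4 groups of mouse muscle endothelial cells. The set was given by symbol: Gas5 (growth arrest-specific 5), Snhg1, Snhg3, Snhg5, Snhg6, Snhg8, Snhg12 and Snhg15, where Snhg stands for small nucleolar RNA host gene, and Epb41l4aos. The 9 genes are 9 of 42374 genes summed from the deposited tables, and all 9 were among the 13971 genes with enough counts to be tested.

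A snoRNA host gene is transcribed and spliced, and its introns are trimmed to snoRNAs that guide chemical changes of ribosomal RNA in the nucleolus. Box C/D snoRNAs guide methylation of ribose with the help of fibrillarin, and box H/ACA snoRNAs guide the change of uridine to pseudouridine with the help of dyskerin. The spliced exons of a non-coding host hold only short reading frames, so that a ribosome that reads them stops early and exposes the RNA to nonsense-mediated decay, the pathway that destroys RNAs with an early stop. Gas5 was named for its build-up in cells that stop growing.

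The study sorted endothelial cells, which line blood vessels, by the surface marker CD31 and the absence of the blood cell marker CD45. The oxidative groups came from soleus muscle and the glycolytic groups from extensor digitorum longus muscle of C57BL/6N mice. The Atf4 ECKO mice lack Atf4, which drives the gene programme of the integrated stress response, in endothelial cells only, while their wild type littermates had no Cre. Both genotypes received tamoxifen at 1 mg per day for 5 days from an age of 8 to 10 weeks, and at least 7 days passed before use. The 4 groups, glycolytic wild type, oxidative wild type, glycolytic Atf4 ECKO and oxidative Atf4 ECKO, held 5 libraries each. The labels name neither the Cre driver nor the animals behind a library, so p-values here measure spread among libraries that could be technical.

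The snoRNAs inside the hosts show what the genes carry. The mouse annotation placed 31 snoRNA entries at 29 separate places inside the 9 genes. Gas5 held 10 entries and Snhg1 held 8, against 5 in Snhg12, 2 each in Snhg3 and Snhg5, and 1 each in the others. A C box (TGATGA within the first 25 bases) together with a D box (CTGA within the last 12 bases) was found in 16 entries, and 1 of the boxes in 6 more. Another 8 entries had the letters ACA at the place near the 3′ end that is typical of box H/ACA snoRNAs. All entries inside Gas5, Snhg1, Snhg5 and Snhg6 had a C or D box, while those of Snhg3, Snhg8, Snhg15 and Epb41l4aos had the ACA. Snhg12 held both kinds. The following are read from GENCODE M21 transcripts, one from each of 3 hosts with a C/D cargo, and capitals mark the C and D boxes.
Snord47, in Gas5, chr1:161038082-161038158, plus strand: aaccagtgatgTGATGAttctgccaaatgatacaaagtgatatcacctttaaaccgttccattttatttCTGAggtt
Snord50a, in Snhg5, chr9:88521529-88521600, minus strand: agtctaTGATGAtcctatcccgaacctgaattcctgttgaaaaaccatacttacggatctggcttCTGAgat
Snord99, in Snhg12, chr4:132310691-132310764, plus strand: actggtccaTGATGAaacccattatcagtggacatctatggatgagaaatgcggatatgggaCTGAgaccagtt
None of these snoRNAs was captured at a level that could be compared. The highest value of any entry in any library was 0.566 CPM (counts scaled to a common library total), for Snord87 of Snhg6, and 14 of the 31 entries never rose above 0 CPM. The levels below are those of the host RNAs, summed over all annotated transcripts of a gene, those with a retained intron included.

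The starts of the hosts are shown because many hosts, like ribosomal protein genes, start with a run of pyrimidines, through which growth signals control translation. RefSeq gave a start for 7 of the 9 genes on GRCm38.p6. Each line holds 30 bases before and 30 bases from the RefSeq start, 5′ to 3′, with the longest unbroken run of C and T near the start in capitals.
Gas5, chr1:161035136-161035195, plus strand: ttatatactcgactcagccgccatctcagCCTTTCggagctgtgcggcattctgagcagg
Snhg1, chr19:8723457-8723516, plus strand: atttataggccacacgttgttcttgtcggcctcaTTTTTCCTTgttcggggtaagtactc
Snhg5, chr9:88522868-88522927, minus strand: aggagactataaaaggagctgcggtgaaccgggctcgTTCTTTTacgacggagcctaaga
Snhg12, chr4:132308648-132308707, plus strand: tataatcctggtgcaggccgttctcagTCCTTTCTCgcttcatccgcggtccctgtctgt
Snhg8, chr3:123508307-123508366, minus strand: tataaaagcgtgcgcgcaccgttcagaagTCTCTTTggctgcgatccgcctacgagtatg
Snhg15, chr11:6528731-6528790, minus strand: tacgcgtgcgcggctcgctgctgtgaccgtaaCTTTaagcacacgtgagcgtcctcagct
A run of at least 6 pyrimidines between 10 bases before and 15 bases after the start was found in 5 of the 7 genes, namely Gas5, Snhg1, Snhg5, Snhg8 and Snhg12. It was found at 33.1% of all 32851 RefSeq starts. The run was 9 bases long in Snhg1 and in Snhg12. Snhg15 had 4 and Snhg3 had 5, below the minimum. For Gas5, RefSeq also gave a start further upstream with a run of 3.

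The promoter windows, 250 bases before to 50 after each RefSeq start, were searched on both strands for CACGTG, the E-box that Myc binds, for TGATGNAA, the composite site of Atf4 with C/EBP partners, and for CTTTTC, a short pyrimidine block. TGATGNAA was in none of the members' windows and in 3.97% of all windows, which says only that these letters are absent from these windows. CACGTG was in the Snhg15 window alone among the members and in 7.15% of all windows. CTTTTC was in 21.8% of all windows and in those of Snhg5, Snhg8 and the upstream start of Gas5. A further motif, TGACGTCA, the palindrome of the cAMP response element, was chosen after the sequences were seen. It was in the windows of Gas5, 46 bases before the start, and Snhg15, 88 bases before it, and in 1.79% of all windows. None of these motifs contains another. The Snhg15 window is printed since it holds both palindromes, in capitals.
Snhg15, chr11:6528711-6528885, minus strand: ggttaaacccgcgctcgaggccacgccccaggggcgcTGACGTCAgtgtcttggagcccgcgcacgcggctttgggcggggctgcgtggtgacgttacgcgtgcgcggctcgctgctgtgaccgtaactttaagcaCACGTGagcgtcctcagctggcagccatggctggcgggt

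The first reading frame of the most abundant annotated transcript shows how early a ribosome would stop. In 8 of the 9 hosts at least 1 exon junction lay more than 50 bases after the stop of the first ATG, the usual position rule for nonsense-mediated decay. Snhg3 was the exception, with 0 such junctions. The frame held 23 codons in Gas5-210, which has 557 bases in 11 exons, and 6 of its 10 junctions lay past that distance. It held 40 codons in Snhg1-211, with 5 of 9 junctions past it, 54 codons in Snhg12-206 and 35 codons in Snhg15-204. In Snhg8-201 the first ATG was followed at once by a stop codon. These frames are read from the annotation, with the first ATG and its stop in capitals.
Gas5-210: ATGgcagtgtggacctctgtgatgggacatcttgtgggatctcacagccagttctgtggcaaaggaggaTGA
Snhg1-211: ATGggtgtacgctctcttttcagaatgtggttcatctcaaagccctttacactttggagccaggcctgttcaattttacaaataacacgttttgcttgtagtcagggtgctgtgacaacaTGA
Snhg15-204: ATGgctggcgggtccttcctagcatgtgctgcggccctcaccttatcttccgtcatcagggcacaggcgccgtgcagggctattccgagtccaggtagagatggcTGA

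Some facts of the whole series touch every result. Library totals ran from 8013223 to 21720127 counts. Atf4, the targeted gene, stood at 243 to 281 CPM in wild type libraries of the glycolytic muscle and at 535 to 589 CPM in those of the oxidative muscle, and at 5.79 to 8.7 CPM in the Atf4 ECKO libraries. All 12 endothelial markers exceeded 1 CPM on average in each group, and their sum was 10641 to 12697 CPM. Of 15 immune markers, 14 exceeded 1 CPM on average in oxidative wild type (sum 389 to 497 CPM), 10 in oxidative Atf4 ECKO (44.2 to 99.7 CPM), 5 in glycolytic wild type (22.6 to 28.3 CPM) and 2 in glycolytic Atf4 ECKO (15.3 to 17.2 CPM). All 9 pericyte and smooth muscle markers exceeded 1 CPM on average everywhere, and summed to 1986 to 2050 CPM in glycolytic Atf4 ECKO and to 582 to 1194 CPM in the other groups. Of these, Acta2 averaged 1024 CPM and Tagln 519 CPM in glycolytic Atf4 ECKO, against at most 362 and 137 CPM in the other groups. The 8 fibroblast markers summed to 51.1 to 427 CPM and the 15 muscle fibre markers to 67.7 to 314 CPM. The libraries also differed in sex-linked RNA: 4 Y-linked genes summed to 92.1 to 118 CPM in wild type and to at most 1.55 CPM in glycolytic Atf4 ECKO. Oxidative Atf4 ECKO libraries 1, 2 and 3 held 64.6, 65.6 and 32.2 CPM of Y-linked RNA beside Xist, and libraries 4 and 5 held 0.932 and 1.1 CPM. Xist stood at 18 to 81.5 CPM in oxidative Atf4 ECKO and at 59.3 to 66.4 CPM in glycolytic Atf4 ECKO. It was at most 0.274 CPM in wild type. The genotypes were therefore not matched for sex in either muscle, and genotype and sex cannot be told apart. Oxidative Atf4 ECKO libraries 1, 2 and 3 also differed in Y-linked RNA from glycolytic Atf4 ECKO. Results of the hosts in oxidative Atf4 ECKO are given with libraries 4 and 5 split from libraries 1, 2 and 3 as well. Neither part matches wild type, and results of other genes are not given by part.

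Levels can be compared between genes only per length, and the deposited TPM, an abundance per length, does this. Gas5 was the most abundant host in every group, at 284 TPM ± 17.2 (SD, n = 5) in glycolytic wild type, 379 TPM ± 22.6 in oxidative wild type, 640 TPM ± 11.6 in glycolytic Atf4 ECKO and 392 TPM ± 28.5 in oxidative Atf4 ECKO. Its libraries did not overlap those of any other host. In glycolytic wild type the order below it was Snhg8 at 92.4 TPM, Snhg6 at 76.8, Snhg3 at 60.8, Snhg1 at 38.9 and Epb41l4aos at 26.3 TPM, each without overlap with its neighbour in the order. Snhg12 (17.3 TPM), Snhg15 (16.9 TPM) and Snhg5 (14.6 TPM) followed and overlapped with their neighbours. Snhg1 stood second in glycolytic Atf4 ECKO, at 163 TPM ± 14.3, above Snhg6 at 126 TPM and Snhg8 at 112 TPM, and Snhg15 stood at 83.6 TPM ± 4.75. The order in the oxidative groups was less distinct. Of the 8 neighbouring pairs, 6 overlapped in oxidative wild type and 6 in oxidative Atf4 ECKO.

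In wild type mice, all 9 hosts were higher in oxidative than in glycolytic endothelium, by 1.36-fold to 3.36-fold. For all 9 the 5 oxidative libraries lay above the 5 glycolytic ones in CPM. By the same test, edgeR's quasi-likelihood test with Benjamini-Hochberg adjustment over all genes, 16.4% of all genes tested were called higher and 15.9% lower, and 12.1% had all oxidative libraries above all glycolytic ones. Summed over the 9 hosts, glycolytic wild type stood at 179 CPM ± 6.71 (SD, n = 5) and oxidative wild type at 338 CPM ± 7.52. In bulk libraries of this kind a change in the share of a cell type that makes the RNA and a change in RNA per cell cannot be told apart.

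Gas5, the host with the largest C/D cargo, read 80.7, 85.1, 85.6, 87.4 and 96.8 CPM in the glycolytic wild type libraries and 137, 145, 150, 148 and 139 CPM in the oxidative ones. The groups were narrow and well apart, and the log2 fold change was 0.72 ± 0.054 (SE, edgeR adjusted p = 4.2e-11). Snhg1, whose introns hold 8 C/D snoRNA entries, read 15, 14.5, 13.6, 13.2 and 15.6 CPM in the glycolytic libraries and 40.6, 36.4, 42.9, 44.8 and 41.8 CPM in the oxidative ones. No library fell between the groups, and the log2 fold change was 1.53 ± 0.11 (SE, edgeR adjusted p = 2.9e-11). Snhg5, host of Snord50a and Snord50b, ran from 6.7 to 9.07 CPM and from 18 to 24.6 CPM, a log2 fold change of 1.42 ± 0.12. Snhg6, host of Snord87, changed by 0.70 ± 0.083 on the log2 scale.

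Snhg12, which carries both kinds of snoRNA and has been studied in the endothelium of diseased arteries, had the largest log2 fold change of the 9 hosts in this comparison, 1.75 ± 0.14 (SE, edgeR adjusted p = 2.1e-10). Its libraries read 6.13, 5.2, 6.24, 7.2 and 7.34 CPM on the glycolytic side and 17.2, 21.2, 23.5, 22.6 and 23.5 CPM on the oxidative side. Among the H/ACA hosts, Snhg15, the host of Snora9, read 8.8, 6.93, 8.47, 6.16 and 7.08 CPM against 21, 24.8, 22.1, 24 and 22.5 CPM. Its log2 fold change was 1.63 ± 0.09 (SE, edgeR adjusted p = 1.4e-13). The other H/ACA hosts differed less: 0.87 ± 0.14 for Epb41l4aos, 0.64 ± 0.082 for Snhg8, the host of Snora24, and 0.44 ± 0.10 for Snhg3, the host of Snora73a and Snora73b. Snhg3 shares its strand and 5592 bases with Rcc1, a gene for a chromatin protein that is transcribed from nearly the same start, so its counts are uncertain.

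**Figure D1:**
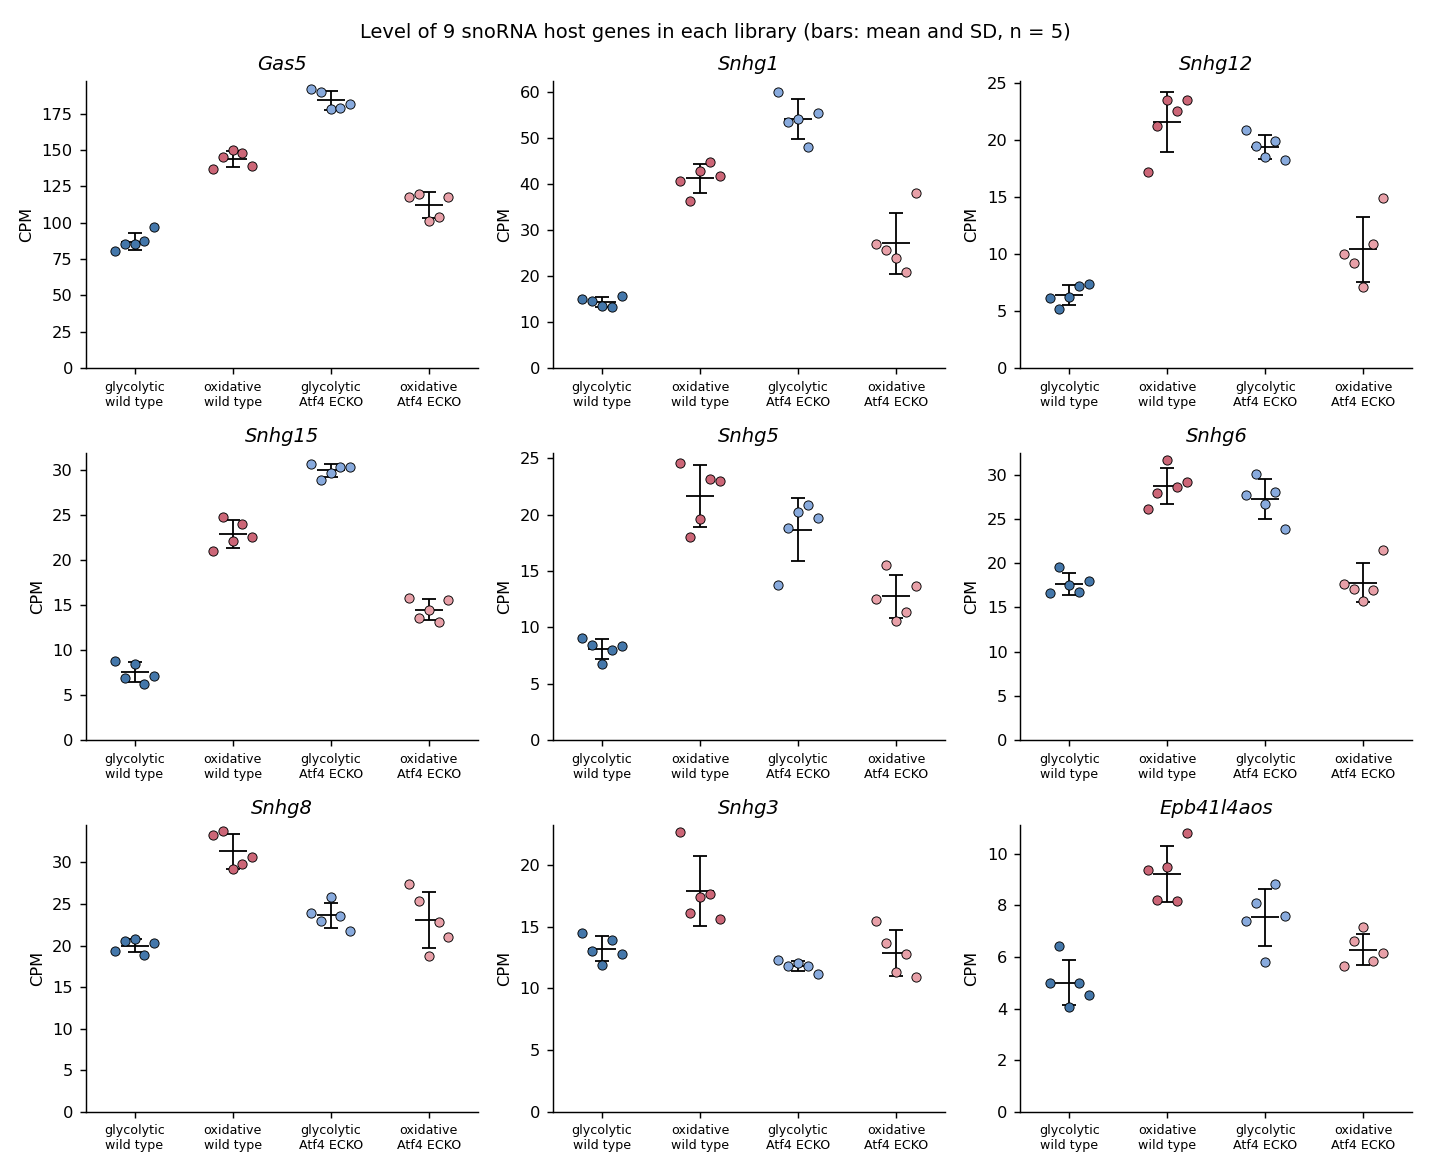
Level in CPM of each of the 9 hosts (y axes, each from 0) in every library of the 4 groups (x axes); points are libraries and bars are the mean and SD of 5. For Gas5, Snhg1 and Snhg15 the glycolytic wild type libraries are lowest and the glycolytic Atf4 ECKO libraries highest, while Snhg3 is highest in oxidative wild type.

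The immune markers moved with this comparison, 389 to 497 CPM in oxidative against 22.6 to 28.3 CPM in glycolytic wild type, with Ptprc, which encodes CD45, at 2.53 CPM ± 0.579 (SD, n = 5) against 0.134 CPM ± 0.088. Fibroblast markers (139 to 328 against 51.1 to 59.2 CPM) and muscle fibre markers (117 to 245 against 67.7 to 75.8 CPM) were also higher in oxidative wild type, and pericyte and smooth muscle markers (582 to 683 against 844 to 855 CPM) lower, all without overlap. The part of these other cell types in the result was not tested, and that of the immune cells only by a fit with the immune level as a covariate. That fit left 2 of the 9 hosts called higher, Snhg1 (log2 fold change 2.70) and Snhg12 (3.55), and 4.96% of all genes in place of 16.4%. Snhg15 (1.73 ± 0.56, edgeR adjusted p = 0.052), Snhg5 (1.81 ± 0.75) and Snhg6 (1.35 ± 0.53) had values as large as before or larger, with larger errors, and were not called. Gas5 (0.52), Epb41l4aos (0.66), Snhg8 (-0.03) and Snhg3 (-0.27) had smaller values and were not called either. Since the immune level did not overlap between the groups, the fit carries the slope within groups across the gap between them.

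Loss of Atf4 in glycolytic muscle went with higher levels of 8 of the 9 hosts. Snhg15 rose 4.04-fold, Snhg1 3.76-fold, Snhg12 3.02-fold, Snhg5 2.31-fold and Gas5 2.11-fold. Snhg6, Epb41l4aos and Snhg8 rose by 1.54-fold, 1.5-fold and 1.18-fold. Over all genes tested, 13.9% were called higher and 15.1% lower. For 7 of the 8 hosts, all but Epb41l4aos, the libraries did not overlap, as for 10.6% of all genes in that direction. The summed level of the hosts was 377 CPM ± 8.72 (SD, n = 5) in glycolytic Atf4 ECKO against 179 CPM ± 6.71 in glycolytic wild type.

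Gas5 read 192, 190, 178, 179 and 182 CPM in glycolytic Atf4 ECKO, so that the lowest of these was well above the highest wild type library of that muscle, at 96.8 CPM. The log2 fold change was 1.08 ± 0.054 (SE, edgeR adjusted p = 2.9e-14). Snhg1 read 60.1, 53.5, 54.1, 48 and 55.6 CPM, above every library of the other 3 groups, with a log2 fold change of 1.91 ± 0.11 (SE, edgeR adjusted p = 5.3e-13). Snhg5 was the most scattered of these hosts, with libraries at 13.8, 18.8, 20.2, 20.9 and 19.7 CPM, all above wild type, and rose by 1.21 ± 0.12 on the log2 scale.

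Snhg12 read 20.9, 19.5, 18.5, 19.9 and 18.3 CPM in glycolytic Atf4 ECKO, a log2 fold change of 1.59 ± 0.14. Snhg15 read 30.6, 28.8, 29.6, 30.3 and 30.3 CPM, the narrowest group of any host with a coefficient of variation of 2.44%. It was the host with the largest change, 2.01 ± 0.09 on the log2 scale (SE, edgeR adjusted p = 3.2e-15). The H/ACA host Snhg8 rose by 0.24 ± 0.085 (edgeR adjusted p = 0.033), and 6 of the 10 refits that leave out 1 library put its adjusted p above 0.05. Snhg3 did not pass the test, with a log2 value of -0.16 ± 0.11 (edgeR adjusted p = 0.31) and overlapping libraries.

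Beside these changes, the pericyte and smooth muscle markers summed to 1986 to 2050 CPM in glycolytic Atf4 ECKO against 844 to 855 CPM in glycolytic wild type, the fibroblast markers to 121 to 129 against 51.1 to 59.2 CPM and the muscle fibre markers to 159 to 172 against 67.7 to 75.8 CPM. Y-linked RNA summed to at most 1.55 CPM against 92.1 to 102 CPM. Within the pericyte and smooth muscle list, Acta2 (189 to 1024 CPM on average) and Tagln (130 to 519 CPM) rose most. Myh11 and Notch3 rose less and Cspg4 hardly changed. Rgs5 (415 to 363 CPM), Pdgfrb (34.7 to 24.9 CPM), Kcnj8 (26.1 to 21.6 CPM) and Abcc9 (16.5 to 15.9 CPM) were lower. The part of the smooth muscle, pericyte, fibroblast and muscle fibre RNA was not tested. With the Y-linked level as a covariate 5 hosts stayed called higher: Gas5 (log2 fold change 1.14), Snhg1 (1.66), Snhg5 (1.25), Snhg12 (0.98) and Snhg15 (2.04). Snhg6 (0.40), Snhg8 (0.42) and Epb41l4aos (0.69) were then not called, beside 9.72% of all genes called higher. Since the Y-linked level did not overlap between these genotypes, the fit carries the slope within groups across the gap. It cannot separate sex from genotype.

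In oxidative muscle the direction was the opposite, and all 9 hosts were lower in Atf4 ECKO than in wild type. Snhg12 fell 2.05-fold, Snhg5 1.71-fold, Snhg6 1.61-fold, Snhg15 1.57-fold and Snhg1 1.51-fold, and Gas5 fell 1.28-fold, the smallest change of the 9. Over all genes tested, 17.4% were called lower and 14.6% higher. The hosts summed to 237 CPM ± 21.4 (SD, n = 5) against 338 CPM ± 7.52 in oxidative wild type. In CPM, 8 of the 9 hosts had libraries that did not overlap between the groups, against 12% of all genes in that direction. In deposited TPM the libraries of all 9 overlapped.

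Gas5 read 118, 120, 101, 104 and 118 CPM in oxidative Atf4 ECKO, all below the lowest oxidative wild type library at 137 CPM. The log2 fold change was -0.36 ± 0.053 (SE, edgeR adjusted p = 6.9e-06). Snhg1 was the host whose groups overlapped: it read 26.9, 25.8, 23.9, 20.9 and 38.1 CPM, and library 5 lay within the wild type range. Its log2 fold change was -0.59 ± 0.11 (SE, edgeR adjusted p = 7.8e-05), and -0.77 without that library. Snhg12 read 9.97, 9.22, 7.15, 10.9 and 14.9 CPM, again with library 5 highest, and its log2 fold change was -1.04 ± 0.14 (SE, edgeR adjusted p = 1.1e-06).

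Snhg15 read 15.8, 13.5, 14.4, 13.1 and 15.5 CPM, below every oxidative wild type library and above every glycolytic wild type one, with a log2 fold change of -0.65 ± 0.085 (SE, edgeR adjusted p = 1e-06). Snhg3 and Snhg8, the H/ACA hosts with the smallest changes in glycolytic muscle, also fell here, by 0.49 ± 0.11 and 0.45 ± 0.082 on the log2 scale. Snhg3 read 22.7, 16.1, 17.4, 17.7 and 15.6 CPM in wild type and 15.5, 13.7, 11.3, 12.8 and 10.9 CPM in Atf4 ECKO, so that the highest Atf4 ECKO library lay just below the lowest wild type one. Epb41l4aos fell by 0.55 ± 0.14.

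All 9 hosts were called lower both with oxidative Atf4 ECKO libraries 4 and 5 alone, which hold almost no Y-linked RNA, and with libraries 1, 2 and 3 alone. With the Y-linked level as a covariate 7 hosts stayed called lower, while Snhg3 (-0.35, edgeR adjusted p = 0.069) and Epb41l4aos (-0.49, edgeR adjusted p = 0.057) were not, beside 15.9% of all genes. Y-linked RNA did not overlap between the genotypes here, at 0.932 to 65.6 against 107 to 118 CPM in wild type. Neither the split nor the covariate can therefore separate sex from genotype. The log2 fold change of Snhg12 was -0.73 in the first split and -1.30 in the second, that of Gas5 -0.37 and -0.34, and that of Snhg15 -0.66 and -0.63. The immune markers were at 44.2 to 99.7 CPM in oxidative Atf4 ECKO against 389 to 497 CPM in wild type. With the immune level as a covariate, Snhg1 (-1.50) and Snhg12 (-2.44) were called lower, beside 6.31% of all genes in place of 17.4%. The other 7 hosts were not called, but Snhg5 (-1.08 ± 0.58), Snhg6 (-1.19 ± 0.41) and Snhg15 (-0.73 ± 0.44) had values at least as far from 0 as before, with larger errors. Gas5 (-0.21) and Epb41l4aos (-0.40) were nearer to 0, and Snhg3 (0.05) and Snhg8 (0.06) were at about 0.

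Gas5 was the only host whose direction in oxidative Atf4 ECKO differed between the scales. Its fall there is seen in counts scaled by TMM, while its deposited TPM was 392 ± 28.5 (SD, n = 5) against 379 ± 22.6 in wild type, a log2 ratio of 0.05 with overlapping libraries. For the other 8 hosts the log2 ratios of mean TPM were from -0.81 for Snhg12 to -0.12 for Snhg3, the same sign as in counts and nearer to 0. Their TPM libraries overlapped between these groups as well, for Snhg12 at 20.3 to 46.7 against 39.9 to 61.5 in wild type. Snhg15 moved further than Gas5 but without a change of sign, from -0.65 in counts to -0.19 in TPM. TPM divides by an effective length and by the sum over all RNAs. The effective length of Gas5 was 358 to 392 bases in oxidative Atf4 ECKO and 417 to 431 bases in oxidative wild type, and mitochondrially encoded RNA took 7.38% to 10.6% and 11.4% to 14.2% of counts in these groups. With the effective length as an offset in the count fit, Gas5 fell by 0.20 ± 0.056 on the log2 scale (edgeR adjusted p = 0.01). In the comparison of genotypes in glycolytic muscle the log2 ratio of mean TPM of Gas5 was 1.17, close to the 1.08 of the count fit. In oxidative against glycolytic wild type this ratio was 0.42 for Gas5 against 0.72 in counts, and 0.16 for Snhg3 against 0.44.

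**Figure D2:**
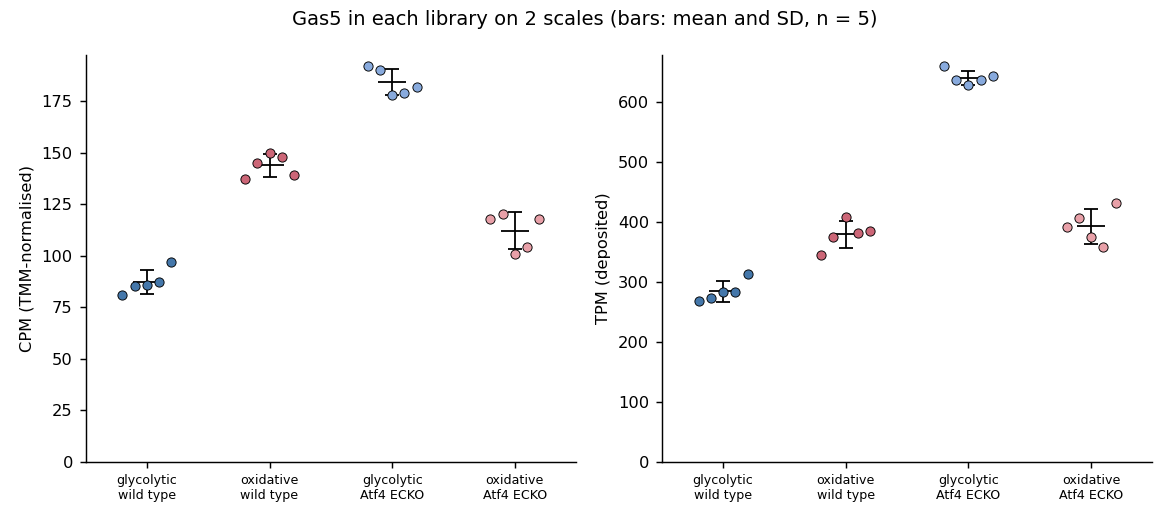
Gas5 in each library as TMM-normalised CPM (left y axis) and as deposited TPM (right y axis), both from 0, by group; points are libraries and bars are the mean and SD of 5. The oxidative Atf4 ECKO libraries lie below the oxidative wild type ones at 101 to 120 against 137 to 150 CPM, while on the TPM scale both groups lie at about the same level, with means of 392 and 379.

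Between the muscles of Atf4 ECKO mice, the difference seen in wild type was turned around: 6 hosts were lower in oxidative than in glycolytic endothelium and none was higher. Over all genes tested, 10.1% were called lower and 8.31% higher. The hosts called lower were Snhg15 (log2 fold change -1.04 ± 0.085), Snhg1 (-0.98 ± 0.11), Snhg12 (-0.88 ± 0.14), Gas5 (-0.71 ± 0.053), Snhg6 (-0.61 ± 0.085) and Snhg5 (-0.57 ± 0.12), with edgeR adjusted p from 3.2e-10 for Gas5 to 0.0011 for Snhg5. For 5 of these 6 the libraries did not overlap, and for Snhg5 they did, beside 7.59% of all genes without overlap in that direction. The H/ACA hosts Snhg3 (0.11 ± 0.11), Snhg8 (-0.05 ± 0.085) and Epb41l4aos (-0.26 ± 0.14) were not called. With the immune level as a covariate only Gas5 (-0.80) and Snhg15 were called lower, beside 5% of all genes. Snhg1 (-0.49), Snhg5 (-0.41), Snhg6 (-0.34) and Snhg12 (-0.15) were nearer to 0 and not called. Snhg12 was -0.57 with oxidative Atf4 ECKO libraries 4 and 5 alone and -1.14 with libraries 1, 2 and 3 alone. Gas5 was -0.72 and -0.69 in these parts. With the Y-linked level as a covariate Snhg12 was -0.61 and Gas5 -0.74. The 6 hosts stayed called lower in that fit, beside 1286 of 13971 genes, and in both parts.

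The test of the difference itself, whether the effect of genotype is the same in both muscles, called 8 of the 9 hosts. All 8 had a lower effect of Atf4 loss in oxidative than in glycolytic muscle, beside 12.5% of all genes tested called lower and 10.1% called higher. The interaction was largest for Snhg15 (log2 value -2.67 ± 0.12, edgeR adjusted p = 1.3e-14), Snhg12 (-2.63 ± 0.20, edgeR adjusted p = 1.7e-10) and Snhg1 (-2.51 ± 0.15, edgeR adjusted p = 2.8e-12). Snhg5 followed with -1.99 ± 0.17, Gas5 with -1.44 ± 0.076, Snhg6 with -1.31 ± 0.12, Epb41l4aos with -1.13 ± 0.20 and Snhg8 with -0.69 ± 0.12. Snhg3 was not called, with -0.33 ± 0.15 (edgeR adjusted p = 0.12). All 8 stayed called with libraries 4 and 5 or with libraries 1, 2 and 3 of oxidative Atf4 ECKO alone, and 6 of them with the immune level as a covariate, without Snhg8 (-0.30) and Epb41l4aos (-1.01), beside 6.34% of all genes lower in that fit. The 4 comparisons and the interaction share groups, so their values are not independent of each other.

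**Figure D3:**
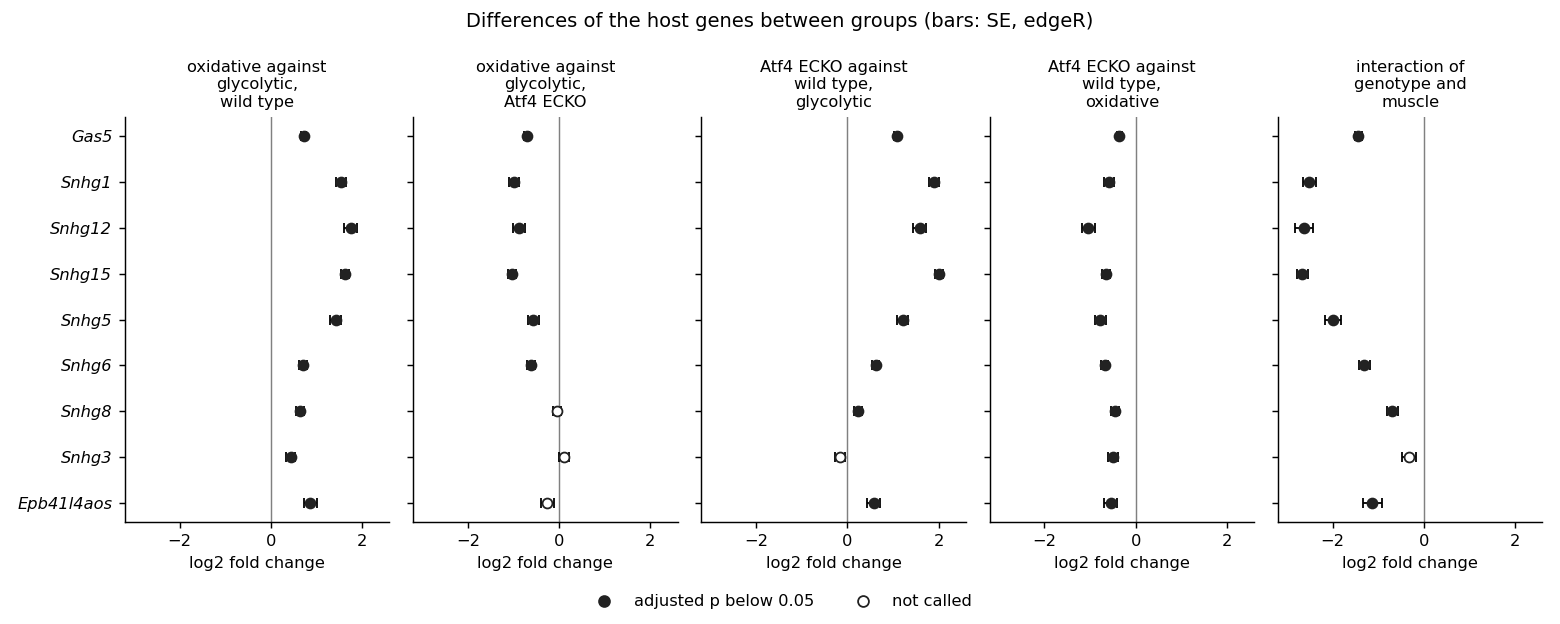
Log2 fold change of each host (rows) in the 4 comparisons between groups and the interaction (panels, x axes in log2 units); bars are SE, filled points have an edgeR adjusted p below 0.05 and open points do not. Filled points lie right of 0 for oxidative against glycolytic wild type and for glycolytic Atf4 ECKO against wild type, and left of 0 in the other panels, and Snhg3 is open in 3 panels.

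Snhg1 starts 106 bases from Slc3a2, the heavy chain of several amino acid transporters at the cell surface, which is transcribed the other way. The neighbours moved the same way in some comparisons, and in opposite directions in glycolytic Atf4 ECKO against wild type. In oxidative against glycolytic Atf4 ECKO, Snhg1 was lower (-0.98 ± 0.11) and Slc3a2 was not called (0.02 ± 0.097, edgeR adjusted p = 0.93). In oxidative against glycolytic wild type both were higher, with a log2 fold change of 0.45 ± 0.096 for Slc3a2 (edgeR adjusted p = 0.00063). In glycolytic Atf4 ECKO, Slc3a2 fell by 0.35 ± 0.097 on the log2 scale (edgeR adjusted p = 0.0069), from 468, 474, 485, 458 and 489 CPM to 354, 373, 379, 371 and 380 CPM, while Snhg1 rose 3.76-fold. In oxidative Atf4 ECKO both fell, Slc3a2 by 0.79 ± 0.097 (edgeR adjusted p = 4e-07). The interaction was negative for both, -0.43 ± 0.14 for Slc3a2 (edgeR adjusted p = 0.022) beside -2.51 for Snhg1. Within oxidative Atf4 ECKO, Slc3a2 read 463, 473 and 374 CPM in libraries 1, 2 and 3. It read 277 and 298 CPM in libraries 4 and 5, which hold almost no Y-linked RNA. Library 5 was the highest for Snhg1, and library 4 was the lowest for both genes.

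**Figure D4:**
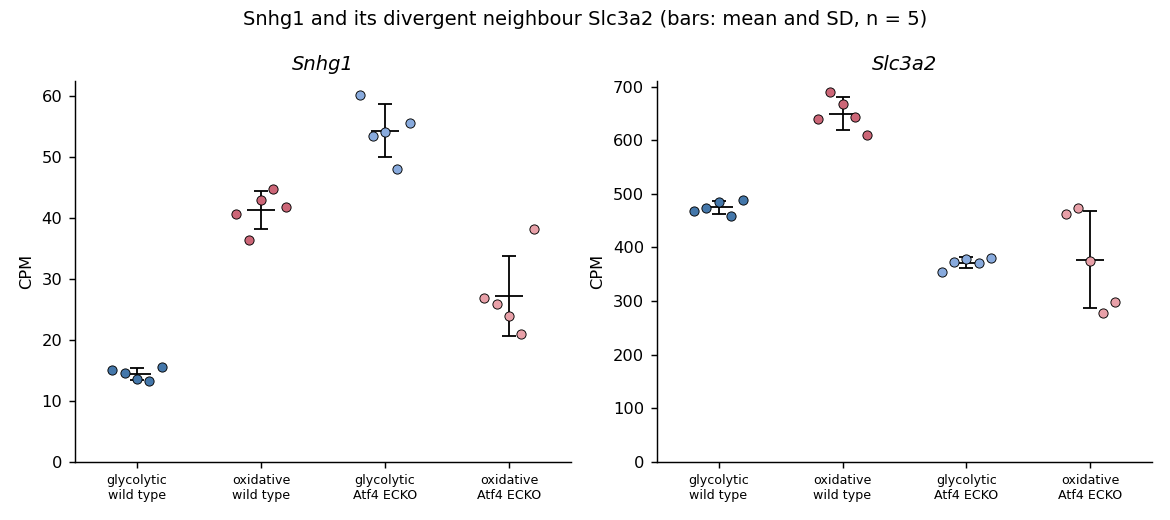
Snhg1 (left) and Slc3a2 (right) in CPM (y axes from 0) in each library by group; points are libraries and bars are the mean and SD of 5. From glycolytic wild type to glycolytic Atf4 ECKO, Snhg1 goes from 13.2 to 15.6 CPM up to 48 to 60.1 CPM, while Slc3a2 goes from 458 to 489 CPM down to 354 to 380 CPM.

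The neighbours of the other hosts were low, except Rcc1. Rcc1 stood at 10.6 to 14.1 CPM on average in the 4 groups, beside 11.8 to 17.9 CPM for Snhg3. Zbtb37, a zinc finger gene that overlaps the first 428 bases of the Gas5 locus on the other strand, stood at 3.52 to 4.62 CPM on average in the 4 groups and was called in none of the 5 tests. Rcc1, which overlaps Snhg3, was called once, lower in oxidative Atf4 ECKO by 0.43 ± 0.12 (edgeR adjusted p = 0.0057), the comparison in which Snhg3 fell by 0.49. Mcmdc2, which overlaps the 3′ end of Snhg6 by 127 bases on the other strand, stood at 0.567 to 1.09 CPM. Gm17300, a non-coding gene on the other strand of Snhg3, stood at 1.87 to 3.38 CPM and was called higher in oxidative wild type (0.66 ± 0.24) and in glycolytic Atf4 ECKO (0.75 ± 0.24). How strand was treated when reads were assigned is not stated in the sources used here.

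Most of the RNA of each host came from 1 or a few spliced transcripts. For Gas5 these were Gas5-210, at 151, 190, 347 and 207 TPM in glycolytic wild type, oxidative wild type, glycolytic Atf4 ECKO and oxidative Atf4 ECKO, and Gas5-224, at 98, 147, 253 and 146 TPM. A shorter spliced form of Gas5 with 8 exons and 346 bases had another pattern, 16.9, 6.01, 10 and 14 TPM. Snhg1-211 held 157 of the 163 TPM of Snhg1 in glycolytic Atf4 ECKO. Snhg15-204 went from 12.7 TPM in glycolytic wild type to 78.8 TPM in glycolytic Atf4 ECKO, while Snhg15-201 stood at 2.39 and 1.73 TPM.

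Transcripts that the annotation types as retained intron took a smaller share of Gas5, Snhg1 and Snhg5 in glycolytic Atf4 ECKO than in glycolytic wild type, but not of Snhg8, the other host with such transcripts. They held 13.4% ± 1.33 (SD, n = 5) of the Gas5 counts in glycolytic wild type and 8.87% ± 0.489 in glycolytic Atf4 ECKO, without overlap, and the shares were not tested. For Snhg1 the shares were 14.4% ± 3.47 and 5.79% ± 1.58, and for Snhg5 28.9% ± 6.85 and 10.5% ± 4.63, while for Snhg8 they were 8.84% ± 1.94 and 10.2% ± 3.84 with overlap. In oxidative wild type the Gas5 share was 18.6% ± 1.34, its highest of the 4 groups, against 12% ± 1.51 in oxidative Atf4 ECKO. Snhg5 went the other way without overlap, from 15.7% ± 3.66 in oxidative wild type to 23.3% ± 4.14 in oxidative Atf4 ECKO. The shares of Snhg1 (11% and 10.4%) and Snhg8 (11.7% and 13.1%) overlapped there. With these transcripts left out of every gene, the calls of all 9 hosts stayed as they were, and Gas5 fell by 0.24 ± 0.054 in oxidative Atf4 ECKO. Over the whole annotation, transcripts typed as targets of nonsense-mediated decay took 1.82% ± 0.0856 of counts in glycolytic Atf4 ECKO and 1.64% to 1.7% on average in the other groups, and retained introns 2.25% ± 0.0763 against 1.86% to 1.98%.

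Other non-coding hosts were looked at through a list of 15 genes, of which 11 were tested. Zfas1 was called in the same direction as Gas5 in all 4 comparisons, and Snhg17 in 3 of them. Zfas1, the host of Snord12 family members, read 16.7, 18.2, 16.3, 14.5 and 19.1 CPM in glycolytic wild type, 46.8, 49, 46.7, 47.3 and 44.4 CPM in oxidative wild type, then 36, 36, 35.1, 27.9 and 39.2 CPM in glycolytic Atf4 ECKO and 24, 19.1, 20.7, 19.4 and 26.1 CPM in oxidative Atf4 ECKO. It was highest in oxidative wild type, unlike Gas5. Snhg17 stood at 5.39 CPM ± 0.685 (SD, n = 5), 11.4 CPM ± 1.17, 21.5 CPM ± 0.669 and 9.91 CPM ± 1.71 in the same order, and its interaction was -2.18 ± 0.16 (edgeR adjusted p = 1.3e-10). Snhg17 was not called between genotypes in oxidative muscle. The counts that follow stand beside 13.9% to 17.4% of all genes called in each direction of these 3 comparisons. Of the 11 genes, Zfas1, Snhg17 and Dancr were called higher and Snhg20 lower in oxidative against glycolytic wild type. Snhg17, Zfas1 and Meg3 were called higher, and none lower, in glycolytic Atf4 ECKO. In oxidative Atf4 ECKO, Zfas1 and Dancr were called lower, while Snhg11 (0.76 ± 0.27) and Ftx (0.53 ± 0.20), the neighbour of Xist, were called higher. Meg3 was low, at 0.656, 1.36, 2.75 and 1.39 CPM on average in the 4 groups.

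Protein-coding hosts and the machinery around snoRNAs are given by their counts and medians, and their difference from the 9 non-coding hosts was not tested. The 29 ribosomal protein genes that hold snoRNAs were called higher in 17 and lower in 0 cases in oxidative against glycolytic wild type, with a median log2 fold change of 0.18 against 0.00 over all genes tested, of which 16.4% were called higher. In oxidative Atf4 ECKO 26 of the 29 were called lower (median -0.40), and 75 of all 78 ribosomal protein genes (median -0.37), against 17.4% of all genes. In glycolytic Atf4 ECKO the ribosomal protein genes did not move with the non-coding hosts: 10 were called higher and 40 lower of 78, with a median of -0.14, while the median of the 9 hosts was 1.08. Of the 29 that hold snoRNAs, 6 were called higher and 11 lower there, with a median of -0.06, beside 13.9% and 15.1% of all genes. Among these carriers Rps2 (0.41 ± 0.054) and Rpl12 (0.61 ± 0.11) were higher, and Rpl4 (-0.34 ± 0.044) and Rpl13 (-0.23 ± 0.041) lower. The other 190 tested coding hosts were called higher in 28 and lower in 20 cases in that comparison, with a median of 0.01, near the 13.9% of all genes called higher and below the 15.1% called lower. In oxidative Atf4 ECKO 55 of the 190 were lower and 23 higher, with a median of -0.08, and some fell further than any of the 9 hosts. Hspa9, the mitochondrial heat shock protein, was lower by 1.76 ± 0.049 (edgeR adjusted p = 3.3e-20), Iars, a tRNA synthetase, by 1.70 ± 0.064 and Gnl3, the nucleolar protein nucleostemin, by 1.17 ± 0.087. In oxidative wild type Hspa9 was higher by 1.28 ± 0.048 and Tsr1, a factor of ribosome assembly, by 1.06 ± 0.11.

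A list of 18 genes, chosen as having a pyrimidine start, held translation factors and other genes such as Ncl, Npm1 and Hnrnpa1. The starts of these genes were not examined here. They were called higher in 10 and lower in 0 cases in oxidative wild type, and lower in 7 and higher in 0 in glycolytic Atf4 ECKO. In oxidative Atf4 ECKO 14 were called lower. The shares of all genes were 16.4% higher, 15.1% lower and 17.4% lower in these comparisons. Their medians were 0.18, -0.07 and -0.31. Eef1a1, the factor that brings aminoacyl-tRNA to the ribosome, was higher by 0.32 ± 0.041 in oxidative wild type, and Ncl, the nucleolar protein nucleolin, was lower by 0.25 ± 0.064 in glycolytic and by 0.85 ± 0.063 in oxidative Atf4 ECKO.

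Of 20 genes for snoRNP proteins and their assembly, 8 were called higher in oxidative against glycolytic wild type and 0 lower. In glycolytic Atf4 ECKO 5 were called higher and 2 lower, and in oxidative Atf4 ECKO 11 were called lower and 0 higher. The shares of all genes were 16.4% higher in the first, 13.9% higher and 15.1% lower in the second and 17.4% lower in the third, so that the 2 lower genes lie below the background. Nop56, a core protein of box C/D particles whose gene itself holds 5 snoRNA entries, was higher by 0.77 ± 0.069 in glycolytic Atf4 ECKO (edgeR adjusted p = 2.1e-09) and had an interaction of -1.04 ± 0.097 (edgeR adjusted p = 6.4e-09). Gar1, of the H/ACA particle, was higher by 0.40 ± 0.083 in glycolytic and lower by 0.69 ± 0.083 in oxidative Atf4 ECKO. Fbl, the methylase fibrillarin, was lower by 0.73 ± 0.087 in oxidative Atf4 ECKO.

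Of 20 genes of the nonsense-mediated decay pathway, 2 were called higher and 2 lower in glycolytic Atf4 ECKO, with a median of -0.01. Both counts lie below the shares of all genes, 13.9% higher and 15.1% lower, so the list as a whole did not stand out there. Smg5, a factor that helps to end the phosphorylated state of Upf1, was higher by 0.65 ± 0.054 (edgeR adjusted p = 5.1e-10), and Smg9, part of the kinase complex that phosphorylates Upf1, by 0.42 ± 0.081. Smg8, a partner of Smg9, was lower by 0.39 ± 0.11. In oxidative Atf4 ECKO 5 were lower and 0 higher, beside 17.4% of all genes lower, among them Etf1, the release factor that reads stop codons, by 0.54 ± 0.057.

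Of the 15 genes of eIF2alpha signalling, the branch that slows translation under stress and includes Atf4 itself, 8 were called higher and 2 lower in oxidative against glycolytic wild type, beside 16.4% and 15.9% of all genes. Ppp1r15a, the phosphatase subunit that restores translation, was higher by 1.91 ± 0.046 and Trib3, a target of Atf4, by 1.49 ± 0.074. In oxidative Atf4 ECKO 9 were lower and 2 higher, beside 17.4% and 14.6% of all genes, so that the 2 higher genes are near the background. Ppp1r15a was lower by 1.74 ± 0.046. In glycolytic Atf4 ECKO 5 were lower and 1 higher, beside 15.1% and 13.9% of all genes, and Ppp1r15a stood at 106 CPM ± 1.69 (SD, n = 5) against 96 CPM ± 4.99 in wild type. The lower genes of both muscles include Atf4, whose fall was set by its deletion. Its log2 fold change was -6.06 ± 0.065 in oxidative and -5.16 ± 0.067 in glycolytic muscle.

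**Figure D5:**
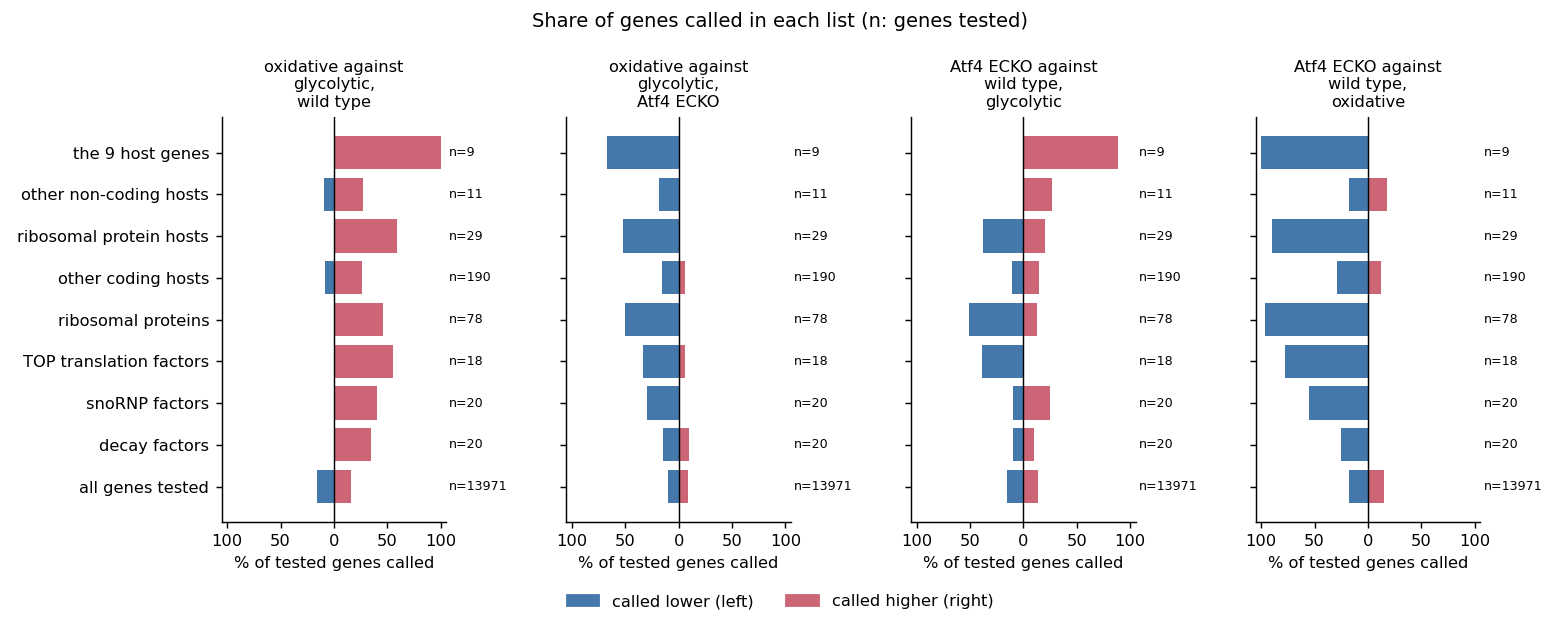
Share of the tested genes of each list (rows, n beside each bar) that were called lower (blue, left) or higher (red, right) in each of the 4 comparisons (panels, x axes in percent). In glycolytic Atf4 ECKO the 9 non-coding hosts lie to the right and the ribosomal proteins and translation factors mostly to the left, while in oxidative Atf4 ECKO all of these lie to the left.

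By Pearson correlation of log2 CPM over the 20 libraries, the 5 tested genes most like Gas5 were Ankrd1 (r = 0.976), Ccn2 (0.969), Nop56 (0.964), Akap12 (0.961) and Zfp948 (0.961). Ankrd1 stood at 15.4, 80.2, 205 and 47.3 CPM in glycolytic wild type, oxidative wild type, glycolytic Atf4 ECKO and oxidative Atf4 ECKO, and Ccn2, a secreted matrix protein, at 352, 880, 1249 and 505 CPM. Both had the order of Gas5 with a wider range. The genes most like the mean of the 9 hosts were Glipr2 (r = 0.976), Nppb (0.966), Tnfrsf12a (0.965), 1110038B12Rik (0.964) and Slc38a2 (0.960). The 1110038B12Rik gene is itself a non-coding transcript with 2 snoRNA entries, one of them Snord52, and was on none of the lists. It read 14.3, 9.85, 12.6, 11.9 and 12.2 CPM in glycolytic wild type and 28.7, 30.3, 29.8, 32.6 and 28.5 CPM in glycolytic Atf4 ECKO. Its oxidative libraries were at 30.3, 31.3, 34.7, 32.2 and 29.7 CPM in wild type and 16.5, 15.8, 15.1, 13.4 and 14.9 CPM in Atf4 ECKO. Among the hosts, r with Gas5 was 0.97 for Snhg1, 0.95 for Snhg15, 0.90 for Snhg12, 0.84 for Snhg5 and Snhg6, 0.67 for Epb41l4aos, 0.52 for Snhg8 and 0.01 for Snhg3. These values describe the 20 libraries, whose 4 groups carry most of the variation.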

How the data were processed

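RNA of CD31-positive, CD45-negative muscle endothelial cells was sequenced in 20 libraries, with a stranded poly(A) kit and single reads of 100 bases, per the labels' protocols. The authors deposited, for each library, estimated counts per transcript, effective lengths and TPM. The submitters' processing notes name kallisto and DESeq2 without versions and the build GRCh38.p13, a human assembly. The identifiers are mouse Ensembl transcripts, and 128643 of 129439 were found in GENCODE M21 (GRCm38), which gave names and coordinates. The rest held no more than 0.221% of counts in any library. Starts came from RefSeq (GRCm38.p6).

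Estimated counts were summed per gene (42374 genes), rounded and tested with edgeR 4.0.16 (R 4.3.3): TMM, filterByExpr, 1 quasi-likelihood fit of 4 group means over all 20 libraries, and Benjamini-Hochberg adjustment over 13971 genes, with a call at adjusted p below 0.05. CPM use TMM library sizes. The SE is the size of the log2 fold change over the square root of F. The scripts were tested on simulated data. Deposited TPM served only for levels between genes, for the levels of single transcripts and for the scale comparison of Gas5 and the other hosts. Replicate numbers did not pair the libraries (r from -0.07 to 0.10 between same-numbered libraries), and no 2 libraries held the same values.

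The 9 hosts, the lists and the tests were chosen with earlier results of these data known. All 9 hosts are named. From each list the text names no more than the 4 members of smallest adjusted p in a comparison, and for likeness the 5 genes with the highest r. The levels of Meg3 and of Ppp1r15a in glycolytic muscle were added after seeing the data. Alternatives were DESeq2 1.42.0, limma-voom (limma 3.58.1), RLE in place of TMM, a fit without the low-count filter, effective lengths as an offset, spliced transcripts alone, scaling without mitochondrial genes and CT010467.1, immune or Y-linked level as a covariate, the compared groups alone, the replicate block and leaving out each library. The split of oxidative Atf4 ECKO libraries was added after seeing the data.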

Additional observations from a re-analysis of the deposited data

Results flagged for a closer look

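The effect of losing Atf4 differed between oxidative and glycolytic muscle by the interaction test for 8 of the 9 hosts. The difference of the 2 effects, oxidative minus glycolytic, was -2.67 on the log2 scale for Snhg15, -2.63 for Snhg12, -2.51 for Snhg1, -1.99 for Snhg5, -1.44 for Gas5, -1.31 for Snhg6, -1.13 for Epb41l4aos and -0.69 for Snhg8. For all 8 the effect was a rise in glycolytic and a fall in oxidative muscle. By Dixon's ratio in CPM, the gap to the nearest library over the range of the group, no library of any host passed the cut of 0.71. Snhg5 in glycolytic Atf4 ECKO (13.8 against 18.8 to 20.9 CPM) and Snhg3 in oxidative wild type (22.7 against 15.6 to 17.7 CPM) came close. In TPM, oxidative Atf4 ECKO library 5 was well above the others for Snhg6 (99 against 73.5 to 77.6) and Snhg1 (117 against 61.5 to 75.7).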

How the results depend on the processing

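RLE factors, DESeq2, limma-voom, spliced transcripts alone, scaling without mitochondrial genes and CT010467.1, the compared groups alone and the replicate block kept the direction and the call of every host in every comparison run. With the replicate block, 9, 6, 8 and 9 hosts were called in the 4 comparisons and 8 in the interaction, as without it. The immune level as a covariate left 2 hosts higher in oxidative wild type, 2 lower in oxidative against glycolytic Atf4 ECKO and 2 lower in oxidative Atf4 ECKO against wild type. In the first and last of these the values of Snhg5 (1.81 and -1.08), Snhg6 (1.35 and -1.19) and Snhg15 (1.73 and -0.73) stayed as large while their errors grew. It reversed Snhg3 to -0.27 and Snhg8 to -0.03 in the first, Snhg3 to -0.19 in the second, Snhg3 to 0.05 and Snhg8 to 0.06 in the last, and Snhg3 to 0.07 in the interaction. The Y-linked level as a covariate left 5 hosts higher in glycolytic Atf4 ECKO and 7 lower in oxidative Atf4 ECKO, without Snhg3 (-0.35) and Epb41l4aos (-0.49), and reversed Snhg3 to 0.11 in glycolytic Atf4 ECKO and to -0.03 between the Atf4 ECKO muscles. In that last comparison, where neither was called, Snhg3 was -0.01 with libraries 4 and 5 alone, and Snhg8 was 0.05 with the length offset and 0.02 with libraries 1, 2 and 3 alone. Leaving out 1 library gave Snhg8 from -0.12 to 0.02 in it. Snhg8 in glycolytic Atf4 ECKO lost its call with the length offset (0.16), without the low-count filter (0.21) and in 6 of 10 refits without 1 library, and Snhg3 gained a call in the interaction without oxidative Atf4 ECKO library 1 (-0.41). Leaving out 1 library gave 7 to 8 hosts higher in glycolytic Atf4 ECKO and 8 to 9 lower in the interaction. The cause was not tested. Hosts at low counts, Epb41l4aos at 53 to 158 per library, carry the largest errors.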
